A study of Mus musculus with 2 samples.

Results

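The cluster of miRNA genes from Mir379 to Mir410 was described in left cerebral cortex of aged mice. Its members were chosen by position. They are the miRNA genes that GENCODE M21 places on the plus strand of chromosome 12 (mm10) from Mir379 to Mir410. That gave 38 of the 2202 annotated miRNA genes, which span 34736 bp (109709060 to 109743795). The study made microRNA-seq libraries, limited to RNA under 30 nucleotides, from total RNA of B6CASTF1/J mice aged 18 to 20 months. These animals are first-generation hybrids of C57BL/6J and CAST/EiJ. There was 1 group of 2 libraries, labelled as biological replicates, with no treatment, mutant or younger group. The labels name the animals female in the sex field and male in the free description, and give 1 donor identifier for both libraries, with a biosample identifier for each. The spread between the libraries may therefore be technical.

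A miRNA gene is transcribed into a hairpin, from which 2 short strands, the 5p and 3p arms, are cut. The bases near the 5′ end of the loaded arm, the seed, pair with target mRNAs and lower their translation or stability. The Dlk1-Dio3 domain is imprinted: Dlk1, Rtl1 and Dio3 are expressed from the paternal chromosome, and the non-coding RNAs Meg3, Rian and Mirg, with the miRNAs, from the maternal one. In neurons the miRNAs from Mir379 to Mir410 are known to be induced together by activity through the transcription factor Mef2, and several of them act on dendrites and synapses. The deposited counts do not separate the parental alleles, nor the arms of a hairpin.

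Mature sequences were matched by symbol to RefSeq's table for GRCm38.p6. It held 69 mature sequences for 37 of the 38 members, with Gm27379 unmatched. Their lengths ran from 19 to 25 nucleotides, with a median of 22. For 32 members 2 sequences were listed and for 5 members only 1, among them Mir485, Mir487b and Mir376c. Seeds and shared stretches of unlisted arms could not be counted below. The following are the listed arms of the 6 most abundant members, with the seed (bases 2 to 8, counted from the 5′ end) in capitals.
miR-411-5p: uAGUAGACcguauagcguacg
miR-411-3p: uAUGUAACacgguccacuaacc
miR-382-5p: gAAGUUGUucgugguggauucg
miR-382-3p: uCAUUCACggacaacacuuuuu
miR-487b-5p: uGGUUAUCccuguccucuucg
miR-379-5p: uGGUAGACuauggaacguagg
miR-379-3p: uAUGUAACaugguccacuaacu
miR-541-5p: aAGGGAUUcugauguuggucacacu
miR-541-3p: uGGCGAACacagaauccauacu
miR-485-3p: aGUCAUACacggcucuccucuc

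The 69 mature sequences carried 63 different seeds, and 6 of these occurred in more than 1 member. The 3p arms of Mir379 and Mir411, neighbours at the start of the cluster, share AUGUAAC, as the lines above show. The 5p arms of Mir379 and Mir1193 share GGUAGAC, those of Mir1197 and Mir758 share GGUUGAC, those of Mir494 and Mir410 share GGUUGUC, and the sequence listed for Mir453 shares GGUUGCC with the 5p arm of Mir496a. Mir376b and Mir376c share UGGAUAU. Another 11 seeds were shared with miRNAs outside the cluster, among them that of miR-329-3p with miR-362-3p and that of miR-410-3p with miR-344d-3p and miR-344e-3p.

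Short stretches recurred across members outside the seed as well. Of all 7-base words in the mature sequences, read on the mature strand alone, 4 occurred in 5 members each, the highest number found. They were GGUCCAC as well as GGUUGAC, which overlaps GUUGACC by 6 bases, and GUUGCCC. None of these 4 words occurred in the mature sequences of the 1021 genes outside the cluster. The shorter word GGUUG was in 12 of 37 members (32.4%) and in 43 of the 1021 other genes (4.21%). The words were picked after counting, so these shares are a description. The lines below show GGUUGAC in capitals, which begins at base 2 in miR-758-5p and at base 11 in miR-154-3p.
miR-380-5p: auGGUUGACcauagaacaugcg
miR-1197-5p: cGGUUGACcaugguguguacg
miR-758-5p: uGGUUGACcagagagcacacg
miR-134-5p: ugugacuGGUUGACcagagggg
miR-154-3p: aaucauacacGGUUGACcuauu

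Long shared stretches, which make the gene of origin of a read uncertain, were few. A mature arm of 3 members shared 18 nucleotides or more with an arm of another gene. Mir376b and Mir376c share the first 18 bases of their 5p arms, shown in capitals here.
miR-376b-5p: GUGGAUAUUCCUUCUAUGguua
miR-376c-5p: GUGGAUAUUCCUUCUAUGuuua
The third was Mir299a, whose 5p arm shares 21 nucleotides with that of Mir299b, annotated on the opposite strand at the same place. The counts of these 3 genes are uncertain for that reason.

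The libraries held 5166667 sense counts of miRNA genes in replicate 1 and 4459993 in replicate 2, where sense is the count column of the gene's own strand. Lines that name no gene made up 65.2% and 65.1% of all reads, and reads with several places in the genome, which those lines include, 41.8% and 46.4%. Levels are given as CPM, counts per 1000000 sense counts, and a count of 0 allows up to 0.581 CPM and 0.673 CPM. As a check of the tissue, 4 of 7 cortex and neuron miRNAs reached 2 CPM in each library, with sums of 72990 CPM and 60352 CPM over the list, while the 3 copies of miR-124 did not reach it. Reads with several places are counted for no gene, so these counts cannot show whether miR-124 was absent. The liver miRNA Mir122 stood at 54.6 CPM and 60.1 CPM, and the muscle list at 18.2 CPM and 65.5 CPM, with 1 of its 3 genes expressed. The others, Mir1a-1 and Mir133a-1, carry copy numbers in their symbols, so the limit given for miR-124 may hold for them too. Oligodendrocyte genes summed to 3945 CPM and 3862 CPM, and endocrine genes to 371.2 CPM and 302.5 CPM. The choroid plexus Mir204 was at 532.6 CPM and 467.0 CPM, and the red-cell Mir451a at 47.0 CPM and 39.7 CPM. The oligodendrocyte, endocrine, choroid plexus and red-cell values lay closer between the libraries than the values of the cell types that follow. The endothelial Mir126a was at 21257 CPM and 10411 CPM and the mural cell genes Mir143 and Mir145a together at 5077 CPM and 9896 CPM, so vascular markers differed between the libraries in both directions. The microglia genes Mir142 and Mir223 summed to 65.6 CPM and 126.2 CPM. Larger differences were seen in miRNAs known from epithelia, the miR-200 and miR-183 genes, a list of 8 added after the values were seen. Its sums were 2472 CPM in replicate 1 and 225.8 CPM in replicate 2, with 7 of 8 expressed, Mir96 not, and Mir200b at 493.7 CPM and 21.7 CPM. The part of these cell types in the differences below, towards either library, was not tested. In such bulk tissue, fewer cells of a type and less RNA per cell cannot be told apart.

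The cluster was broadly expressed and, with library totals as the scale, its summed level differed little between the libraries. It held 251989 sense counts in replicate 1, which is 4.88% of the library (95% exact Clopper-Pearson interval 4.86% to 4.90%). In replicate 2 it held 214514 counts, or 4.81% (4.79% to 4.83%). The mean share was 4.84% ± 0.0477 (SD, n = 2, as for every SD below), and the intervals, which cover counting error only, did not overlap. A total of 34 of the 38 members (89.5%) reached 2 CPM in both libraries, the level used here for expressed, against 18.6% of all miRNA genes (409 of 2202). The column of the other strand held 1 count over all members in replicate 1 and 0 in replicate 2.

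Levels differed widely within the cluster. Among expressed members the mean ran from 5.48 CPM for Mir758 to 6859 CPM for Mir411, a ratio of 1251. The median was 335.0 CPM, beside 88.9 CPM for all expressed miRNA genes. The 5 highest members by mean level held 49.2% of the cluster's counts in replicate 1 and 70.2% in replicate 2, and the 10 highest held 77.9% and 88.0%. Mir411 alone held 12.3% and 16.1%.

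**Figure D1:**
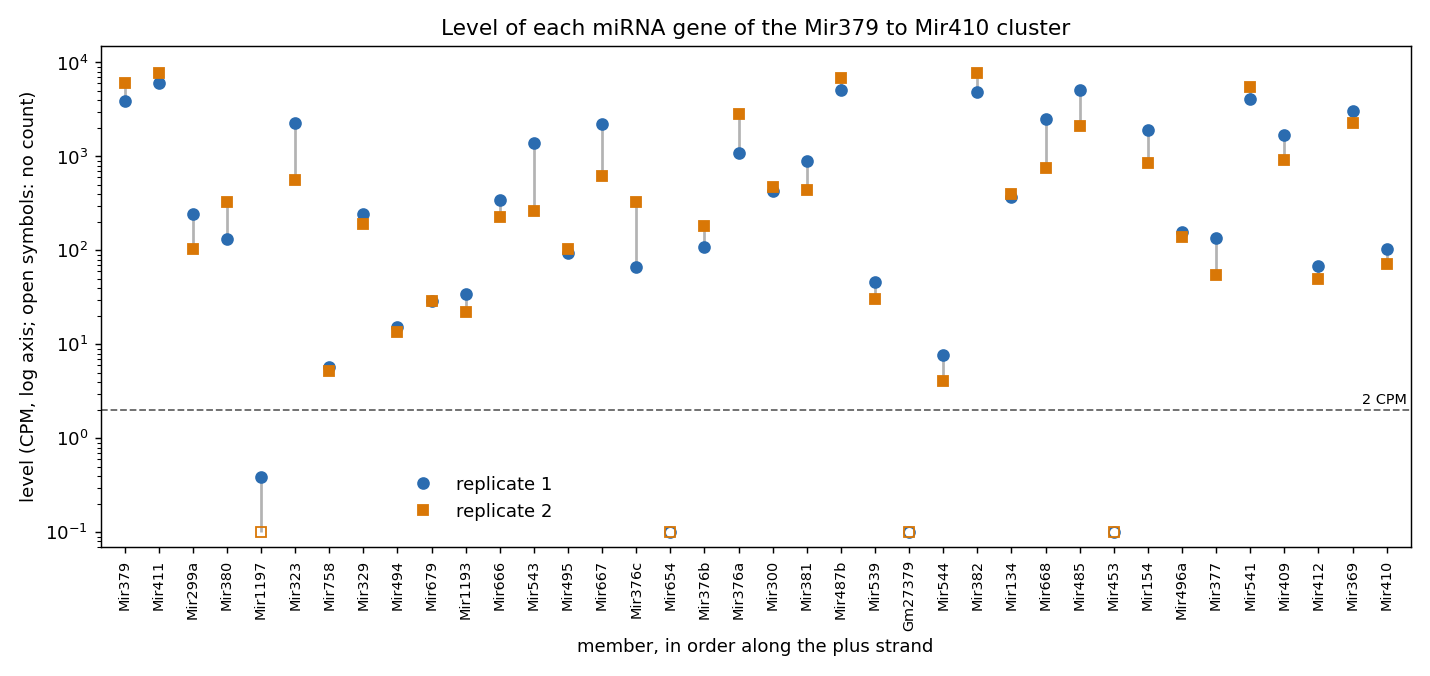
Level of each of the 38 members in CPM on a log axis, in order along the plus strand, in replicate 1 (circles) and replicate 2 (squares), with a grey line joining the libraries, open symbols for no count and a dashed line at 2 CPM. High members lie beside low ones, from Mir411 at 5979 and 7739 CPM down to Mir758 at 5.81 and 5.16 CPM and Mir544 at 7.74 and 4.04 CPM among those above the line in both libraries.

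The highest member was Mir411, at 109710175 to 109710256 (ENSMUSG00000065477.3), with 5979 CPM in replicate 1 and 7739 CPM in replicate 2. Mir382, in an exon of the non-coding gene Mirg, stood at 4896 CPM and 7678 CPM. Mir487b was at 5058 CPM and 6854 CPM. These 3 were followed by the first gene of the cluster, Mir379, at 3935 CPM and 6013 CPM, and by Mir541, in an intron of Mirg, at 4137 CPM and 5463 CPM. All 5 were higher in replicate 2, the most for Mir382, at 1.57-fold. Their means were 6859 ± 1245, 6287 ± 1968, 5956 ± 1270, 4974 ± 1470 and 4800 ± 937.1 CPM in that order. These SDs hold the shift that all 5 shared, so they do not measure differences between genes within a library. Mir411 was above Mir382, and Mir487b above Mir379, in both libraries. Mir382 and Mir487b changed order between the libraries, as did Mir379 and Mir541. Among all miRNA genes Mir411 ranked 31 in replicate 1 and 28 in replicate 2.

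The next 5 members by mean level, apart from Mir369, were less even between the libraries. Mir485, whose miRNA is known to act on synaptic vesicle protein SV2A, had 5139 CPM and 2120 CPM. Mir369 had 3051 CPM and 2268 CPM. Mir376a had 1090 CPM and 2814 CPM, higher in replicate 2 where Mir485 and Mir369 were lower. Mir668 had 2475 CPM and 752.5 CPM, and Mir667 had 2231 CPM and 620.0 CPM. Mir323, Mir667 and Mir668 were among the 10 highest members in replicate 1 but not in replicate 2, where Mir154, Mir376a and Mir409 took their places, and the other 7 were shared.

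At the low end, 4 members did not reach 2 CPM. Mir654, Mir453 and the predicted gene Gm27379 had no sense count in either library. Mir1197 had 2 counts in replicate 1 and 0 in replicate 2, below the limit of 3 counts. Mir758, which shares its 5p seed with Mir1197, had 30 and 23 counts, the lowest mean level among expressed members, and Mir544 had the fewest in replicate 2, with 18. Mir453 had no count beside 806 and 620 counts for Mir496a, with which it shares a seed. Mir494 stood at 15.5 CPM and 13.7 CPM and its seed partner Mir410, the last gene of the cluster, at 103.4 CPM and 72.0 CPM. Mir1193, the seed partner of Mir379, was at 34.3 CPM and 22.0 CPM, far below it. The means of the other 2 pairs with a shared seed lay closer together, with Mir379 and Mir411 both among the 5 highest by mean, and Mir376b and Mir376c at 146.4 CPM and 199.1 CPM.

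High and low members were interspersed along the DNA. Gaps between neighbouring hairpins ran from 20 to 4368 bp with a median of 522 bp. The 13 members from Mir379 to Mir543 summed to 14647 CPM and 15483 CPM, the 13 from Mir495 to Mir382 to 14908 CPM and 19531 CPM, and the 12 from Mir134 to Mir410 to 19217 CPM and 13084 CPM. The order of these sums changed between the libraries. The median of the mean levels of expressed members rose along the cluster, from 222.7 CPM to 448.2 CPM and 1300 CPM in these 3 parts. Whether level depends on position was not tested. In the annotation, 8 members lay in exons and 5 in introns of Mirg (109729764 to 109749460), and the other 25, all upstream of it, lay outside any other gene on that strand. Near the end of the cluster, Mir412 stood at 68.7 CPM and 49.6 CPM between Mir409 at 1681 CPM and 918.8 CPM and Mir369 at 3051 CPM and 2268 CPM.

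The members with known roles in dendrites, all 5 among the 34 of 38 that were expressed, were Mir134, whose miRNA lowers the kinase Limk1 at dendritic spines, Mir329, Mir381, Mir485 and Mir495. Mir134 was among the steadiest, with 371.6 CPM and 396.6 CPM. Mir495, known to target Bdnf, was at 94.6 CPM and 102.5 CPM, and Mir329, linked like Mir381 to activity-dependent dendrite growth, at 243.9 CPM and 191.5 CPM. Mir381 stood at 884.5 CPM and 441.7 CPM. Together the 5 genes summed to 6733 CPM and 3252 CPM, a difference carried by Mir485 and Mir381.

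The 3 miR-376 genes lie next to each other, with Mir654 among them, and were all higher in replicate 2. These miRNAs are known for A-to-I editing, which can change their seed. Mir376a had the highest level of the 3. Mir376b was at 109.0 CPM and 183.9 CPM and Mir376c at 66.6 CPM and 331.6 CPM. The family summed to 1266 CPM and 3329 CPM. Of its 3 genes 2 were over 2-fold higher in replicate 2, where 5.38% of all expressed miRNA genes were. In the other direction 0 were over 2-fold higher in replicate 1, where 19.6% of all were. In the column without strand, where Mir376a is listed at 0, the mean sum of 2297 CPM became 373.6 CPM.

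The miR-154 family, the largest group of related hairpins here, had 13 listed members in the cluster, all expressed. In the whole cluster 34 of 38 were, and 18.6% of all miRNA genes. Its sums were 20642 CPM and 20346 CPM, a mean of 20494 ± 209.1 CPM. Of its 13 genes 4 were over 2-fold higher in replicate 1, where 19.6% of all expressed miRNA genes were, and 0 over 2-fold higher in replicate 2, where 5.38% were. Its highest genes, Mir382 and Mir487b, were higher in replicate 2, and the family's median log2 ratio of replicate 2 to replicate 1 was -0.52. The miR-379 family of Mir379, Mir380, Mir411 and Mir758 summed to 10050 CPM and 14081 CPM. Mir380 of this family stood at 131.0 CPM and 324.2 CPM. A hand-picked list of Mir666, Mir667, Mir668, Mir679, Mir1193 and Mir1197, which leaves out Mir758, summed to 5114 CPM and 1650 CPM, led by Mir668 and Mir667. Of its 6 members 5 were expressed, beside 34 of the 38 in the cluster.

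Single members differed more between the libraries than the cluster's sum did. With 0.5 added to each count and library totals as the scale, 9 of the 34 expressed members (26.5%) were over 2-fold higher in replicate 1, where 19.6% of all expressed miRNA genes were, and 3 (8.82%) were over 2-fold higher in replicate 2, where 5.38% of all were. The other 22 lay within 2-fold. The median log2 ratio of replicate 2 to replicate 1 was -0.39 over the members and -0.17 over all expressed genes. Each library stands alone in this ratio, so there is no test. The scale matters for the whole table: edgeR's TMM raised all log2 ratios by 0.13 and DESeq2's size factors by 0.20. The ratio of the cluster's sum shifts with them. Over all expressed genes the 22 higher and 80 lower in replicate 2 became 33 and 66 with TMM, and 38 and 59 with DESeq2's factors. For the members the 9 became 8 with TMM, without Mir381, and 7 with DESeq2's factors, without Mir381 and Mir154, while the 3 stayed 3.

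**Figure D2:**
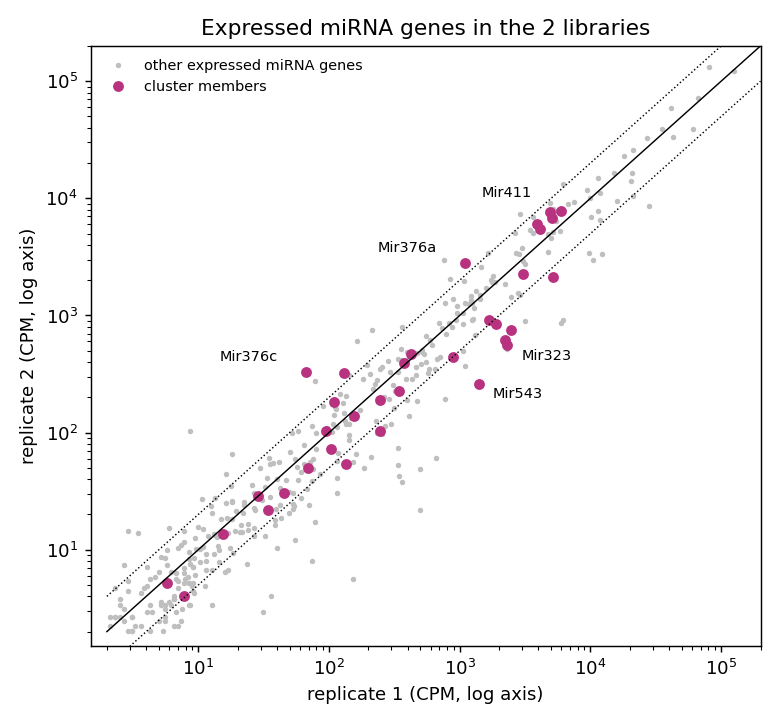
Level in replicate 1 against level in replicate 2, both in CPM on log axes, for the 409 expressed miRNA genes, with the 34 expressed cluster members as large points and the other genes as small grey points. The solid line marks equal levels and the dotted lines 2-fold, and Mir376c (66.6 and 331.6 CPM) and Mir543 (1394 and 260.8 CPM) lie farthest from the solid line among the members.

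Towards replicate 1, Mir543 differed most among the members. Its counts were 7200 and 1163, a ratio of 5.34-fold after scaling. Mir323 followed with 11837 and 2475 counts (4.13-fold), then Mir667 with 11526 and 2765 (3.60-fold), Mir668 with 12786 and 3356 (3.29-fold) and Mir377 with 694 and 242 (2.47-fold). These are the arms of the first 4, seeds in capitals.
miR-543-5p: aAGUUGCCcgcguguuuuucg
miR-543-3p: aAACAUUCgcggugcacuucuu
miR-323-5p: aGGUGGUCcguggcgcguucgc
miR-323-3p: cACAUUACacggucgaccucu
miR-667-5p: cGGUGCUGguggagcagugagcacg
miR-667-3p: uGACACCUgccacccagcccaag
miR-668-5p: gUAAGUGUgccucgggugagcaug
miR-668-3p: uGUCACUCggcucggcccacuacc

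Towards replicate 2, 3 members passed 2-fold. The counts of Mir376c were 344 and 1479 (4.98-fold), Mir376a had 5632 and 12549 (2.58-fold), and Mir380 had 677 and 1446 (2.47-fold). The 3p arm listed for Mir376b is shown beside that of Mir376a, with seeds in capitals, since these related genes differed in the same direction.
miR-376a-5p: gGUAGAUUcuccuucuaugagu
miR-376a-3p: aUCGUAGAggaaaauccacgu
miR-376b-3p: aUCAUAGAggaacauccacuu
miR-380-3p: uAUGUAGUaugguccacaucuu

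With library totals as the scale, 15 of the 33 pairs of neighbouring expressed members had log2 ratios of opposite sign and 18 of the same sign. Runs of 1 sign included Mir376c to Mir300, all above 0, and Mir668 to Mir377, all below 0 except Mir496a with DESeq2's factors (0.04). Mir382, Mir134, Mir668 and Mir485 lie in this order within exons of Mirg, between 24.7 and 25.8 kb from the start of the cluster. Their log2 ratios of replicate 2 to replicate 1 were 0.65, 0.09, -1.72 and -1.28. Mir543 (-2.42) lay next to Mir495 (0.11), which like Mir134 is near 0, and Mir299a (-1.24), Mir380 (1.31) and Mir323 (-2.05) followed one another with Mir1197 before the last. Just outside the cluster, 4.08 kb after Mir410, Mir3072 had 210.2 CPM and 61.4 CPM.

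**Figure D3:**
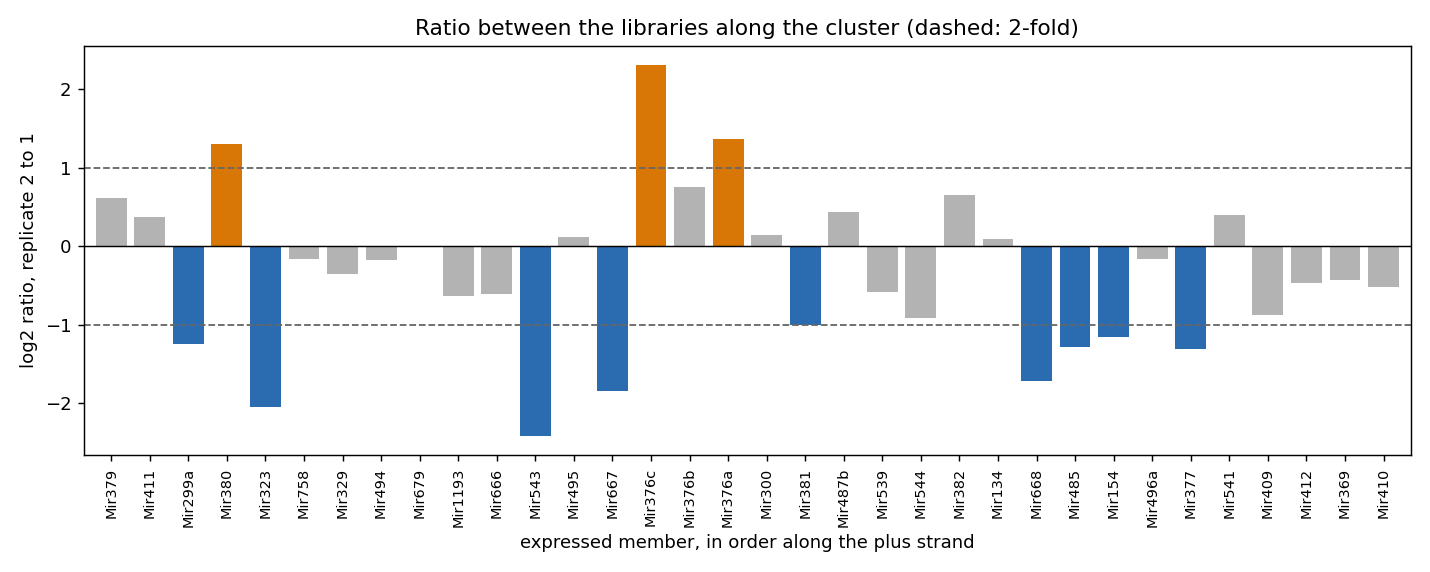
Log2 ratio of replicate 2 to replicate 1 for the 34 expressed members, in order along the plus strand, with dashed lines at 2-fold. Bars past 2-fold are orange (higher in replicate 2) or blue (higher in replicate 1), bars within 2-fold are grey, and 15 of the 33 neighbouring pairs differ in sign, such as Mir299a (-1.24) and Mir380 (1.31).

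Across the members, a higher ratio of replicate 2 to replicate 1 went loosely with a lower share of G and C in the hairpin. Hairpin sequences were listed for 32 of the 34 expressed members. Those over 2-fold higher in replicate 2 had 29.1%, 32.4% and 42.6% G and C (Mir376c, Mir376a and Mir380). The 9 over 2-fold higher in replicate 1 ran from 40.0% to 62.0% with a median of 43.4%, and the 20 within 2-fold from 33.8% to 60.6% with a median of 42.8%. These medians lay close together. Across the 32 members Pearson's r between log2 ratio and GC content was -0.49 and Spearman's rho -0.40. The same description gave -0.30 and -0.38 over 315 expressed genes outside the cluster, and 0.12 and 0.13 over the 16 expressed proximal genes of the domain. All genes share the same 2 libraries and are not independent, so these values carry no test. The relation was loose: Mir134 had 60.6% G and C and a log2 ratio of 0.09, and Mir543 had 43.4% and -2.42. The part of base composition in the difference between the libraries was not tested.

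**Figure D4:**
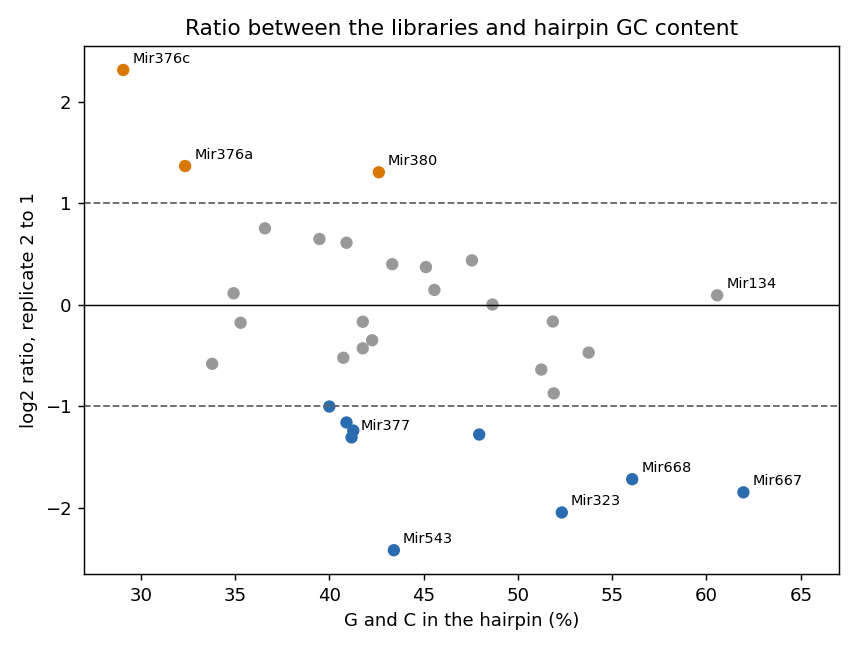
Log2 ratio of replicate 2 to replicate 1 against the percentage of G and C in the hairpin for 32 expressed members, with dashed lines at 2-fold and colours as in the bar plot. The members with the lowest and the highest GC content, Mir376c (29.1%) and Mir667 (62.0%), lie on opposite sides of 0 (2.31 and -1.85), while Mir134 (60.6%) lies near 0.

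Across the 34 expressed members the libraries ranked levels alike, with Pearson's r of 0.94 on log2(CPM + 1) and Spearman's rho of 0.94. Over the 375 other expressed genes these were 0.97 and 0.96. The median absolute log2 ratio was 0.62 for members and 0.55 for the others. These genes share both libraries, so the values are descriptions.

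The proximal miRNA genes of the same domain, upstream of Mir379, were compared in the same libraries. Of 21 proximal genes 16 were expressed (76.2%, beside 18.6% of all miRNA genes), with a median of 841.7 CPM. Of these 16, 1 (6.25%) was over 2-fold higher in replicate 1, where 19.6% of all expressed miRNA genes were. In replicate 2, 0 were over 2-fold higher, where 5.38% of all were. They summed to 82613 CPM and 65371 CPM, of which Mir127 was the largest part, at 60404 CPM and 39198 CPM. The distal cluster held 37.1% of the domain's sense counts in replicate 1 and 42.4% in replicate 2. Whether the proximal and distal genes differ in their agreement between libraries was not tested.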

How the data were processed

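MicroRNA-seq was analysed in 2 libraries of left cerebral cortex, mapped to replicates 1 and 2 by the labels. The authors deposited raw read counts per miRNA gene, 1 table per library, with columns without strand and for each strand. Per the deposited description of the files they use mm10 and GENCODE M21. Which aligner and counter were used is not given in the sources used here. Library sizes leave out the 4 lines without a gene.

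CPM, exact 95% intervals (SciPy 1.17.1) and ratios with 0.5 added were computed from sense counts. edgeR 4.0.16 (TMM) and DESeq2 1.42.0 (size factors) served as other scalings only. The ratio step was tested on simulated data. No contrast between conditions exists, so no gene was tested. Symbols and coordinates are from GENCODE M21 and sequences from RefSeq (GRCm38.p6). Members and lists were chosen with earlier results of these data known.

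The members described singly were the 10 highest by mean, up to 5 with the largest ratio each way past 2-fold, those below 2 CPM, members sharing a seed or an 18-nucleotide stretch with another member, the first and last gene and the dendrite list. Others, such as Mir299a, Mir154, Mir409 and Mir412, were named beside them after their values were seen.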

Additional observations from a re-analysis of the deposited data

Results flagged for a closer look

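The column for the strand opposite to a gene held counts at the 5 minus-strand miRNA genes that lie across from members, 16492 in replicate 1 and 18690 in replicate 2, above the limit of 3 counts. These numbers equal the sense counts of Mir299a, Mir380, Mir376a, Mir539 and Mir409 added up: Gm25252, opposite Mir376a, had 5632 and 12549 opposite-strand counts, the same as the sense counts of Mir376a. The 5 minus-strand genes had no sense count of their own. The 2 numbers were equal in all 5 pairs and in both libraries, and the column without strand gave all 5 members a count of 0. Both strand columns here count reads of the plus strand at the same place, so the opposite-strand counts are not read as a separate signal.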

How the results depend on the processing

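With 1 CPM, or a count of 1, as the minimum 34 members again passed, and with 10 CPM 32. Of all 2202 miRNA genes 619 passed with a count of 1 and 300 with 10 CPM. Without strand 29 passed, beside 387 of all miRNA genes, and the median level of expressed members was 415.7 CPM. In that column 1 member in place of 3 was over 2-fold higher in replicate 2, since Mir376a and Mir380 then have no count. Of the 387 genes 18 (4.65%) were over 2-fold higher in replicate 2. Per 1000000 sense counts plus reads with several places, the cluster's share was 2.14% and the median 148.3 CPM. Per 1000000 of all reads they were 1.69% and 116.7 CPM. Leaving out 1 library gave a median from 327.9 to 358.4 CPM and a share from 4.81% to 4.88%, and single levels then stayed within 1 SD by construction. At 1.5-fold, 6 of the 34 expressed members were higher in replicate 2, where 62 of all 409 expressed genes (15.2%) were. Another 13 were higher in replicate 1, where 132 of the 409 (32.3%) were. The median log2 ratio was -0.26 with TMM and -0.19 with DESeq2's factors, where Mir758, Mir494 and Mir496a changed sign (0.04, 0.03 and 0.04). With Mir3072 as a member, an alternative added after seeing the data, the median was 285.8 CPM. In that setting 35 members were expressed and 10 of them were over 2-fold higher in replicate 1, where 80 of all 409 expressed genes (19.6%) were. A shared stretch of 16 nucleotides was found in 5 members, adding Mir300 and Mir381, and of 20 in 1. No paired analysis was possible because there is 1 group.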
